A study of Homo sapiens with 9 samples.

Results

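The chemokines CXCL1, CXCL2, CXCL3, CXCL5, CXCL8 and CCL20 were examined in A549, an established human lung adenocarcinoma cell line. They were chosen by name, as the 6 rows carrying these symbols among the 58735 genes of the deposited count table. All A549 cells had been transfected with 1 plasmid: a control plasmid in the PC3 group (3 libraries, whose treatment labels read PC3.1, PC3.2 and PC3.3), a plasmid overexpressing the long noncoding RNA LINC00996 in the L996 group (3 libraries), or a plasmid overexpressing the long noncoding RNA AP001189.3 in the RP11 group (3 libraries). These groups are called control, LINC00996 and AP001189.3 here. No tumour, leukocyte or animal sample was among them, so the model is 1 cancer cell line grown alone. The labels do not say that the 3 libraries of a group came from separate cultures, and p-values therefore measure only the spread between these libraries, which may be technical.

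CXCL1, CXCL2, CXCL3, CXCL5 and CXCL8 are CXC chemokines that carry a Glu-Leu-Arg motif before their first cysteines and attract neutrophils through the receptors CXCR1 and CXCR2. CCL20 binds CCR6 and attracts immature dendritic cells, B cells and IL-17-producing T cells. Airway epithelium makes both kinds of signal when interleukin 1, interleukin 17 or tumour necrosis factor act on it, by way of NF-kB and AP-1, and the half-life of the resulting mRNAs is set by proteins that bind AU-rich elements.

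The CXC members lie together on chromosome 4 of GRCh38, within 358.8 kb. In order along the chromosome they are CXCL8 (73740506 to 73743716, plus strand), CXCL1 (73869393 to 73871242, plus strand), CXCL5 (73995642 to 73998779, minus strand), CXCL3 (74036589 to 74038807, minus strand) and CXCL2 (74097035 to 74099293, minus strand). CCL20 is on chromosome 2 (227805739 to 227817564, plus strand). All 6 are annotated as protein-coding, and no other annotated gene overlaps any of them.

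The promoter stretches are shown because those of the 5 CXC members hold the same short run of letters. Each sequence gives the 140 bases just before the transcription start of RefSeq (GRCh38.p14), read 5′ to 3′ on the strand of the gene. Capitals mark the letters GGAATTTCC, the centre of a kappa B element, the type of site that NF-kB dimers bind.
CXCL1, chr4:73869253-73869392, plus strand: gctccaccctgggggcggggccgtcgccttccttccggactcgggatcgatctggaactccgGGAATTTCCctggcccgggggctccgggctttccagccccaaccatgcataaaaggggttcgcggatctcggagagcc
CXCL2, chr4:74099196-74099335, minus strand: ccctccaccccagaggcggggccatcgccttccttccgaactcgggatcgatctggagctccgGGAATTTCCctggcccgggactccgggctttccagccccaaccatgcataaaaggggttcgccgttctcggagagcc
CXCL3, chr4:74038690-74038829, minus strand: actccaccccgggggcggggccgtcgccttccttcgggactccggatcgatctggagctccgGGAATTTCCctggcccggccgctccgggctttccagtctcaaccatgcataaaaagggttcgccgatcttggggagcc
CXCL5, chr4:73998678-73998817, minus strand: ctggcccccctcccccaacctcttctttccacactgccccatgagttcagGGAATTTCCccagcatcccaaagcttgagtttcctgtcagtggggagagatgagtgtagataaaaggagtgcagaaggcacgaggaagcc
CXCL8, chr4:73740429-73740568, plus strand: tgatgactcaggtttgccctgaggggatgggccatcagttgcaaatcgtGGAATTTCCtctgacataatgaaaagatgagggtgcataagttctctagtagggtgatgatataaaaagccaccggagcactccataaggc
CCL20, chr2:227813702-227813841, plus strand: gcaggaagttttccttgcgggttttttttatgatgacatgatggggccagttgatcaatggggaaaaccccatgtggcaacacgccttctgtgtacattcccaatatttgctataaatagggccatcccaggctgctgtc

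The same 9 letters stood in the promoters of all 5 CXC members, beginning 78 bases before the start in CXCL1 and CXCL3, 77 in CXCL2, 90 in CXCL5 and 91 in CXCL8. They were absent from the CCL20 window. Searched on both strands over 250 bases before to 50 bases after the start, GGAATTTCC was found in 129 of 27305 RefSeq promoters (0.472%). The longer kappa B consensus, which overlaps these letters, matched CXCL1, CXCL2, CXCL3, CXCL5 and, on the opposite strand, CCL20, against 10.8% of all promoters. The AP-1 letters TGANTCA were found in CXCL8 alone among the 6 (7.76% of all promoters), and TATAAA in CXCL8 and CCL20 (12% of all promoters). The stretches of CXCL1 and CXCL3 were identical at 90.7% of positions without gaps, and those of CXCL8 and CXCL2 at 25.7%. A match of letters is a description of the sequence and does not show binding.

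The 9 libraries held 15272450 to 18125447 counts each. LINC00996 had 4 to 9 counts in the control libraries, 7 or 8 in the AP001189.3 libraries and 4373 to 5952 in the LINC00996 libraries. AP001189.3 had 0 to 2 counts in the control, 0 in each LINC00996 library and 1660 to 2378 in its own group, so both transcripts went with their labels. Epithelial keratins were abundant (KRT8 63915 to 111613 counts, KRT18 35256 to 46406), while the surfactant genes SFTPB, SFTPC and SFTPA1 and the lung factor NKX2-1 had at most 6 counts in any library. Of 9 leukocyte and blood markers, CD14 alone was tested (124 to 251 counts, not called in either comparison with the control), and the common leukocyte marker PTPRC had 0 or 1 count. LINC00996 replicate 1 stood apart from the other libraries of its group: a chi-square statistic per gene of 21.6 and 32.4 separated it from replicates 2 and 3, which differed from each other by 3.24, and control pairs by 3.31 to 7.11. Across genes, the deviation of a library from the mean ran with the GC content of the gene at a Spearman rho of 0.43 in that library and -0.42 in LINC00996 replicate 3, and the AP001189.3 libraries lay between 0.2 and 0.35. The results for the 6 chemokines are therefore also given without LINC00996 replicate 1 and after a correction for GC content.

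In the control cells CXCL5 was the most abundant member and CCL20 the least. Between genes, levels were compared in TPM, a unit that divides counts by gene length and sets each library to the same total. CXCL5 reached 4792 ± 141 TPM (SD, n = 3), CXCL1 2160 ± 83.8, CXCL8 1580 ± 139, CXCL2 577 ± 25.7, CXCL3 268 ± 6.21 and CCL20 164 ± 13.1. This order was the same in all 9 libraries, and within each group no 2 neighbours in it overlapped. By TPM, CXCL5 ranked 15 or 16 among all genes in the control libraries and took 50.2% ± 1.14 of the summed TPM of the 6 genes, whereas CCL20 took 1.72% ± 0.108. The 6 genes together held 0.541% ± 0.0146 of all control counts. Of the longest transcript of CXCL1, CXCL2 and CXCL3, 23.3%, 29% and 5.91% lay in 50-base windows shared exactly with another of the trio. The reads were pairs of 150 bases, longer than these windows, and the effect of the sharing on the counts was not tested. CXCL5 shared 3.03% with GLYR1, and CXCL8 and CCL20 shared none. How reads matching more than 1 gene were counted is not given in the sources used here.

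**Figure D1:**
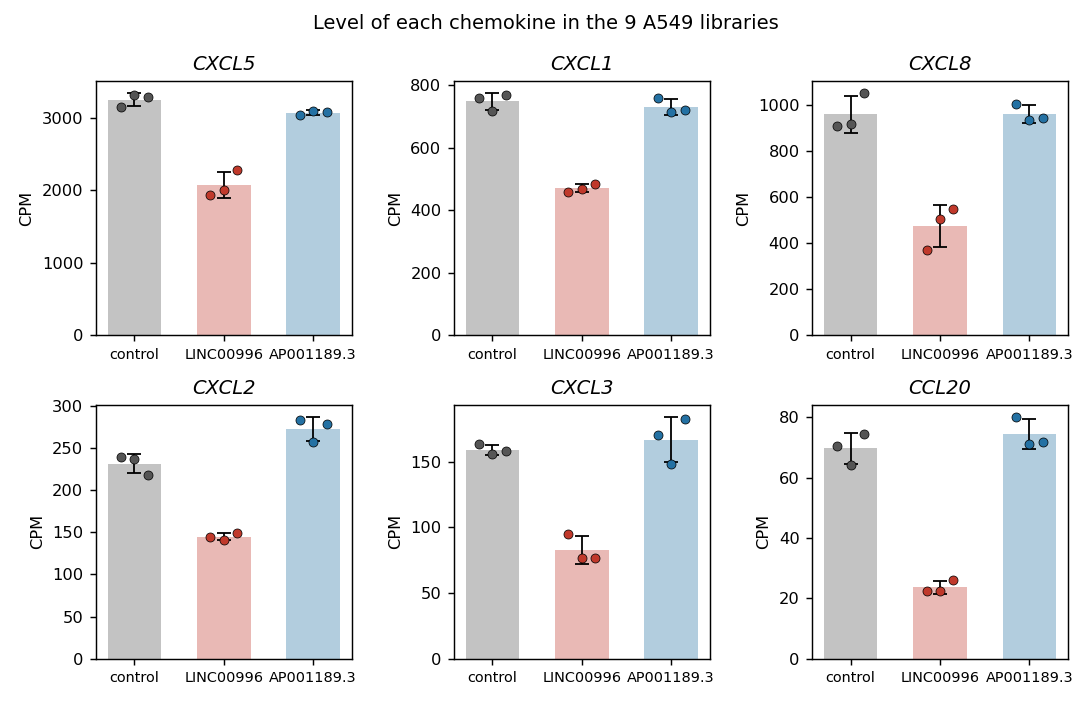
Level of each chemokine in CPM (counts scaled to library size, linear axis from 0) in the control, LINC00996 and AP001189.3 libraries; points are the 3 libraries of a group, bars their mean and whiskers the SD. In each of the 6 panels the 3 LINC00996 libraries sit below all control and all AP001189.3 libraries.

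The comparison of LINC00996 with control asks what the tumour cells express when this immune-related transcript is forced on. All 6 chemokines fell, to between 33.9% (CCL20) and 63.6% (CXCL5) of control, and for each of them the LINC00996 libraries lay below all control libraries. Among the 16097 genes tested by the quasi-likelihood test of edgeR, 22.3% were called at an adjusted p under 0.05 (11.6% lower and 10.7% higher), and 40.4% did not overlap between these groups. The median log2 fold change was -0.81 over the 6 chemokines and 0.01 over all tested genes. In bulk RNA, fewer cells making a chemokine and less of its mRNA in each cell cannot be told apart.

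CCL20, the only CC chemokine of the 6 and the ligand of CCR6, fell the most. In CPM, counts scaled to the effective library size, it stood at 70.4, 64.2 and 74.7 in the control libraries, at 22.4, 22.5 and 26.1 in the LINC00996 libraries and at 80.2, 71.3 and 71.9 in the AP001189.3 libraries. The LINC00996 values were separated from the other 6 by a gap wider than the spread of any group. The log2 fold change against control was -1.56 (SE 0.11, 95% interval -1.80 to -1.32, edgeR adjusted p = 3.593e-06).

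CXCL8, or interleukin 8, which binds both CXCR1 and CXCR2, fell to about 49.3% of control. The control libraries read 910.2, 919 and 1052 CPM, the LINC00996 libraries 372, 504 and 547 CPM, and the AP001189.3 libraries 1004, 934 and 945 CPM. CXCL8 varied more among the LINC00996 libraries than any other member (coefficient of variation 19.3%), and its lowest value was in replicate 1, the library that stood apart. Its log2 fold change against control was -1.02 (SE 0.13, edgeR adjusted p = 2.29e-04) and -0.87 without that library. The CXCL8 gene model has a GC content of 33.4%, the lowest of the 6, against a median of 48.5% over tested genes, and after GC correction CXCL8 was still called lower (edgeR adjusted p = 2.808e-10).

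CXCL3 (GRO-gamma), CXCL2 (GRO-beta) and CXCL1 (GRO-alpha) are close paralogs that act mainly on CXCR2. CXCL3 read 163, 156 and 158 CPM in control, 95.1, 77.1 and 76.7 CPM with LINC00996, and 170.3, 148 and 182 CPM with AP001189.3. Here LINC00996 replicate 1 was the highest of its group, the reverse of its place for CXCL8. The log2 fold change of CXCL3 was -0.94 (SE 0.10, edgeR adjusted p = 8.466e-05).

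CXCL2 read 239.6, 236 and 219 CPM in control, 144, 141 and 149 CPM with LINC00996, and 283, 257 and 279 CPM with AP001189.3. Its 3 groups were all separate from each other, with AP001189.3 the highest. Against control, CXCL2 changed by -0.68 on the log2 scale with LINC00996 (SE 0.09, edgeR adjusted p = 2.27e-04).

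CXCL1 read 759, 718 and 768 CPM in control, 458, 469 and 485 CPM with LINC00996, and 761, 714 and 720 CPM with AP001189.3. The control and AP001189.3 libraries were interleaved, and the LINC00996 libraries lay well below both. Its log2 fold change with LINC00996 was -0.67 (SE 0.08, edgeR adjusted p = 1.453e-04).

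CXCL5, also called ENA-78 and another CXCR2 ligand, had the largest absolute fall. Its relative fall was the smallest, but it differed from those of CXCL1 and CXCL2 by less than its SE. When libraries were left out it reached -0.73, a larger fall than CXCL1 showed in any such fit (down to -0.70). It read 3149, 3311 and 3293 CPM in control, 1931, 2000.3 and 2273 CPM with LINC00996, and 3037, 3097 and 3075 CPM with AP001189.3. Here too the 3 groups were separate, with the AP001189.3 values tightly grouped just under the control values. The log2 fold change of CXCL5 with LINC00996 was -0.65 (SE 0.08, edgeR adjusted p = 2.305e-04), and its rank by TPM went from 15 or 16 in control to between 26 and 38.

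Leaving out LINC00996 replicate 1 left all 6 chemokines called, with log2 fold changes from -0.60 (CXCL5) to -1.52 (CCL20). All 6 also remained called after GC correction, with values from -0.63 (CXCL5) to -1.53 (CCL20). Together the 6 genes held 0.334% ± 0.0300 of all counts in the LINC00996 libraries and 0.518% ± 0.00253 in the AP001189.3 libraries.

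**Figure D2:**
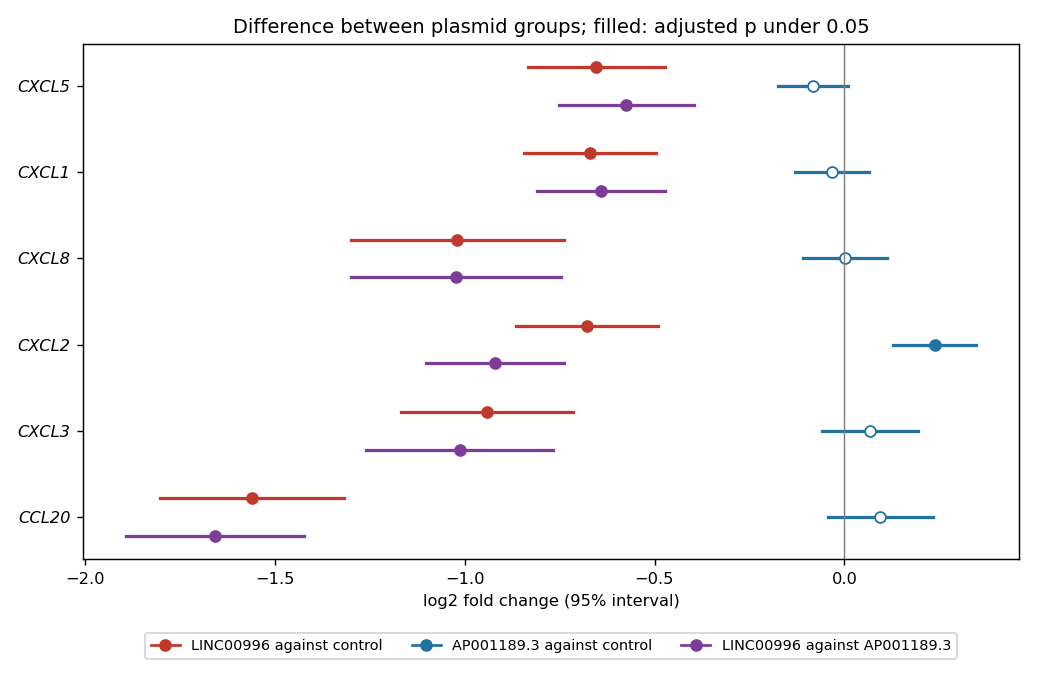
Log2 fold change of each chemokine (points, x axis) with its 95% interval (lines) in the 3 comparisons of plasmid groups; filled points had an adjusted p under 0.05. All intervals of the LINC00996 comparisons lie below 0, from -0.65 (CXCL5) to -1.56 (CCL20) against control, and the AP001189.3 points lie near 0 except CXCL2 at 0.24.

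The members did not fall by equal amounts. The log2 ratio of CXCL5 to CCL20, in TPM, was 4.79 to 5.02 in the control libraries and 5.76 to 5.81 in the LINC00996 libraries, a rise of 0.91. Ratios to CCL20 were higher with LINC00996 in all 5 pairings and overlapped with control in none, with rises from 0.53 (CXCL8) to 0.91 (CXCL5). CXCL1, CXCL2 and CXCL5 were also higher relative to CXCL8, by 0.37, 0.36 and 0.38, but by 0.22, 0.20 and 0.26 without LINC00996 replicate 1. Ratios to CCL20 were 0.47 to 0.92 higher without that library. By contrast, CXCL1, CXCL2 and CXCL5 kept overlapping ratios to one another, with differences between -0.02 and 0.01. In all, 8 of 15 ratios did not overlap between LINC00996 and control, 6 of 15 between AP001189.3 and control and 9 of 15 between LINC00996 and AP001189.3. With 3 libraries against 3 a two-sided exact permutation test cannot go below p = 0.1, the value the ratios without overlap reached (adjusted p = 0.196 over 45 ratios). Without LINC00996 replicate 1, 11 of 15 ratios did not overlap between LINC00996 and control. The log2 ratios of CXCL1 to CXCL3, CXCL2 to CXCL3 and CXCL3 to CXCL5 then changed by 0.40, 0.38 and -0.44. They had overlapped with that library in. The share without overlap among other gene pairs was not computed.

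The comparison of AP001189.3 with control gave a different picture: CXCL2 rose, and the other 5 chemokines were not called. Of 16023 genes tested, 19.8% were called (8.49% lower and 11.4% higher), and 35.2% did not overlap. In CPM, CXCL2 averaged 231.5 ± 11.4 in control and 273 ± 14.1 with AP001189.3 (SD, n = 3), and its log2 fold change was 0.24 (SE 0.05, 95% interval 0.13 to 0.35, edgeR adjusted p = 0.0022). This call depended on the samples fitted, since with all 9 libraries in 1 fit the adjusted p of CXCL2 was 0.0968.

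For the uncalled members the intervals limit how large a difference these libraries allow. CXCL8 had a log2 fold change of 0.0012 (95% interval -0.11 to 0.11) and CXCL1 of -0.03 (-0.13 to 0.07). CXCL3 stood at 0.07 (-0.06 to 0.19) and CCL20 at 0.09 (-0.04 to 0.23). CXCL5 was lower in each AP001189.3 library than in each control library, yet its log2 fold change of -0.08 (-0.17 to 0.01) had an adjusted p of 0.204 by edgeR. The AP001189.3 libraries were shifted toward GC-rich genes, and CXCL8, CCL20 and CXCL5 have the lowest GC contents of the 6 (33.4%, 35.5% and 37.6%). After GC correction, 3 of the 6 were called higher: CXCL2 (0.29), CCL20 (0.25, edgeR adjusted p = 0.0145) and CXCL8 (0.18, edgeR adjusted p = 0.0207), and CXCL5 and CXCL1 turned to 0.05 and 0.02. Of the 16023 genes tested, 2354 were called in that fit, 954 lower and 1400 higher.

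When the overexpression groups were compared directly, all 6 chemokines were lower with LINC00996 than with AP001189.3, and none overlapped. Of 16095 genes tested, 21.4% were called (12.1% lower and 9.38% higher) and 39.2% did not overlap. CCL20 was again furthest apart, at a log2 fold change of -1.66 (SE 0.11, edgeR adjusted p = 2.16e-06), or 31.7% of its AP001189.3 level. CXCL8 followed at -1.02, CXCL3 at -1.01, CXCL2 at -0.92, CXCL1 at -0.64 and CXCL5 at -0.57. This comparison and the previous ones share libraries pairwise, so they are not separate evidence.

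The fall did not extend evenly over the CXC cluster. Within 500 kb on either side of the CXC members there were 13 other protein-coding genes, of which 7 were tested: 4 fell with LINC00996, none rose and 3 were not called. Over all genes tested, 11.6% fell. CXCL6, a neutrophil chemokine that also binds CXCR1 and CXCR2 and lies between CXCL8 and CXCL1, had 106, 125 and 116 counts in control and 130, 145 and 202 with LINC00996. Its log2 fold change of 0.40 (SE 0.18) was not called by edgeR (adjusted p = 0.144), and it was called higher at 0.55 without LINC00996 replicate 1 and at 0.40 after GC correction (adjusted p = 0.0404). PPBP, the platelet chemokine precursor, had 20 to 50 counts and a log2 fold change of -0.07 (SE 0.31), PF4 had at most 12 counts and was not tested, and PF4V1 was at 0.

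Past the chemokines, the epidermal growth factor receptor ligands EREG and AREG fell, at log2 fold changes of -0.84 (SE 0.13, edgeR adjusted p = 7.898e-04) and -0.50 (SE 0.11, edgeR adjusted p = 0.00547). MTHFD2L, a mitochondrial folate enzyme whose gene is the next protein-coding one past CXCL2, stood at -0.00019 (SE 0.15). RASSF6 and ANKRD17 fell by 0.49 and 0.32, and both were also lower with AP001189.3 (-0.37 and -0.20). Their LINC00996 calls were weak: RASSF6 lost its call under 3 of 14 alternatives (adjusted p up to 0.121) and ANKRD17 under 5 (up to 0.160), each of them when any 1 control library was left out. With AP001189.3 they lost their calls under 7 and 5 of 14 alternatives, after GC correction among them (-0.23 and -0.11). Around CCL20, 16 other protein-coding genes were annotated within 500 kb and 5 were tested. With LINC00996, 1 of the 5 was called, beside 22.3% over all genes tested. AGFG1 fell with LINC00996 (-0.37) but lost its call under 5 of 14 alternatives (adjusted p up to 0.143), among them the omission of any 1 control library. COL4A3, MFF, TM4SF20 and SLC19A3 were not called with LINC00996 against control, with values from -0.29 to 0.16. With AP001189.3 against control, 2 of the 5 fell, beside 8.49% lower over all genes tested. MFF, whose product recruits the mitochondrial fission machinery, stood at -0.52 (SE 0.07, edgeR adjusted p = 3.68e-06) and kept its call under all 14 alternatives. AGFG1 stood at -0.26 (edgeR adjusted p = 5.605e-04) and lost its call with all 9 libraries in 1 fit and after GC correction. Between the overexpression groups, TM4SF20 alone of these 5 was called, at 0.45 higher with LINC00996 (edgeR adjusted p = 0.0296), beside 21.4% called over all genes tested.

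**Figure D3:**
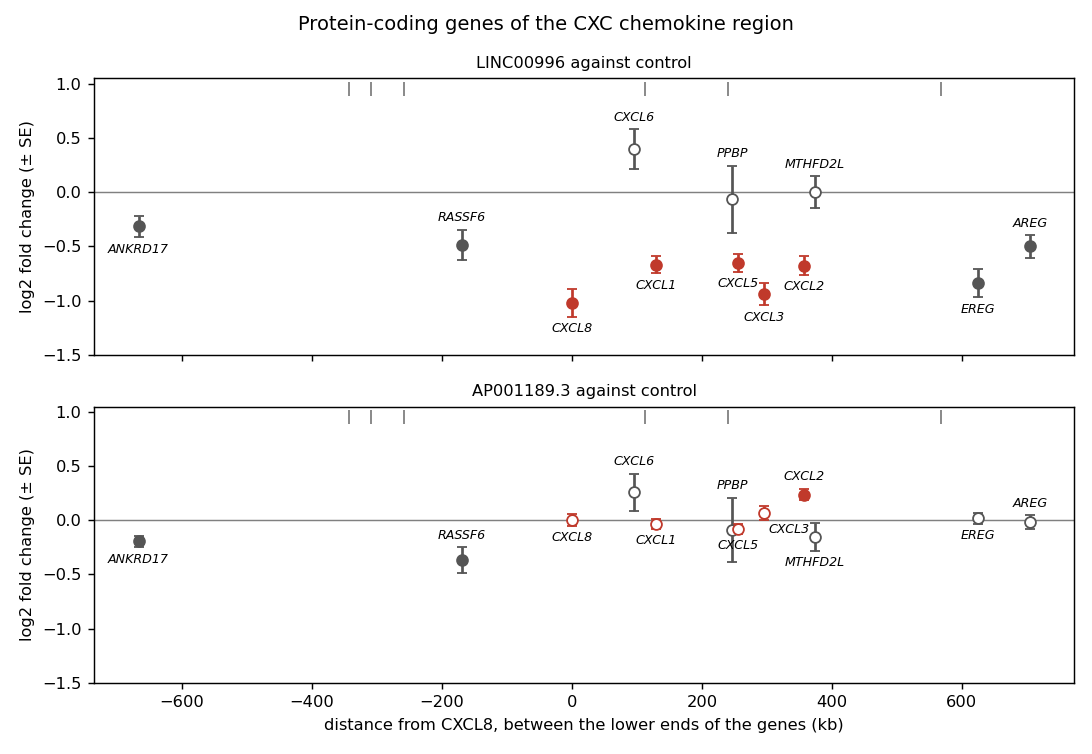
Log2 fold change (± SE) of the tested protein-coding genes around the CXC members against the distance of each gene from CXCL8 in kb, for LINC00996 (upper panel) and AP001189.3 (lower panel) against control; members are red, filled points had an adjusted p under 0.05, and grey ticks mark genes too low to test. With LINC00996 the 5 members lie between -0.65 and -1.02 while CXCL6, PPBP and MTHFD2L among and beside them were not called.

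The receptors of these ligands were at or near 0 in every library. CCR6 had no count in any of the 9 libraries, which allows up to 0.166 to 0.196 CPM per library. CXCR1 had at most 1 count, CXCR2 at most 7 and the scavenger receptor ACKR1 at most 10, and none of the 4 was tested.

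Among the 36 other chemokine genes, 12 were tested for LINC00996 against control: 10 fell, none rose, and the median log2 fold change was -1.96, against -0.81 for the 6 chemokines described here. Over all genes tested, 11.6% fell and 10.7% rose. CCL5, which attracts T cells and monocytes, went from 1202 ± 115 to 121 ± 11.5 CPM (log2 fold change -3.32, SE 0.10), CXCL10, a ligand of CXCR3, from 36.0 ± 1.02 to 4.01 ± 1.28 CPM (-3.16, SE 0.18), and the membrane-bound CX3CL1 from 70.9 ± 5.73 to 15.2 ± 2.28 CPM (-2.22, SE 0.13). With AP001189.3, 13 were tested, 3 rose and 1 fell, beside 11.4% higher and 8.49% lower over all genes tested. CX3CL1 rose by 0.90 (edgeR adjusted p = 1.308e-10), CCL5 fell by 0.24 (edgeR adjusted p = 0.00585) but lost its call with all 9 libraries in 1 fit (adjusted p = 0.145), and CXCL10 stood at 0.47 (adjusted p = 0.193).

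Other epithelial products that act on or accompany neutrophils were mostly lower with LINC00996. Of 12 neutrophil-related and acute phase genes tested, 9 fell and none rose, with a median of -1.04, beside 11.6% lower over all genes tested. ICAM1, the ligand to which neutrophils adhere, changed by -1.53 on the log2 scale (SE 0.13), the acute phase protein gene SAA2 by -1.55 (SE 0.14) and complement C3 by -1.19 (SE 0.08). With AP001189.3, 2 rose and 2 fell, beside 11.4% higher and 8.49% lower over all genes tested. SAA1 rose by 0.63 (edgeR adjusted p = 7.267e-06) and ICAM1 by 0.56 (edgeR adjusted p = 0.0011). SLPI stood at -0.71 (edgeR adjusted p = 9.258e-04) and C3 at -0.19 (edgeR adjusted p = 0.0112). C3 lost its call under 4 of 14 alternatives, with adjusted p up to 0.175 when all 9 libraries were in 1 fit.

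Of the cytokines known to induce these chemokines, 6 of 12 could be tested. With LINC00996, 3 of these fell, beside 11.6% lower over all genes tested. IL1A fell from 27.2 ± 0.613 to 9.10 ± 1.88 CPM (log2 fold change -1.58, SE 0.15, edgeR adjusted p = 3.277e-05). TNF fell from 5.21 ± 0.544 to 1.86 ± 0.621 CPM (-1.47, SE 0.26) and IL1B from 10.2 ± 1.99 to 4.69 ± 0.244 CPM (-1.12, SE 0.18). With AP001189.3, 2 of 6 rose, beside 11.4% higher over all genes tested. LTB rose by 0.92 (SE 0.13, edgeR adjusted p = 9.74e-06) and IL1B by 0.44 (edgeR adjusted p = 0.0276). IL1B lost its call under 6 of 14 alternatives (adjusted p up to 0.191, without AP001189.3 replicate 1).

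Downstream of these cytokines, 7 of 20 receptor and adaptor genes fell with LINC00996 and none rose (median -0.27), beside 11.6% lower over all genes tested. The kinase gene IRAK2 fell by 1.02, the ubiquitin ligase gene TRAF6 by 0.70 and the adaptor gene TAB2 by 0.62 on the log2 scale. This count depended on the libraries and the correction: 3 were called without control replicate 2, 4 without control replicate 3 and 4 without LINC00996 replicate 2, and after GC correction 14 were called, 12 of them lower. Over all genes tested, the 3588 calls became 1925, 2162, 2474 and 5986 in the same settings. With AP001189.3, 2 fell and 3 rose, or 5 of 20 beside 19.8% over all genes tested, and 1 was called with all 9 libraries in 1 fit.

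Of 15 genes of NF-kB, AP-1 and C/EBP factors and their nuclear partners, 10 fell with LINC00996 and none rose (median -0.47). Over all genes tested, 11.6% fell. The 15 are called transcription factor genes here. NFKB2 fell by 0.92, NFKBIZ, a nuclear partner of NF-kB needed for a subset of its targets, by 0.89, and RELA, the main transactivating subunit, by 0.80. Inhibitors of the pathway, several of them known NF-kB targets, went the same way: 6 of 9 fell and none rose, including TNFAIP3 (-1.36), TNIP1 (-0.93) and the interleukin 1 receptor antagonist gene IL1RN (-2.24).

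In the AP001189.3 libraries 10 of the 15 factor genes rose and 1 fell (median 0.30), beside 11.4% higher and 8.49% lower over all genes tested. The largest rises were FOSL1 at 0.92, JUN at 0.66, CEBPD at 0.50, RELB at 0.47 and JUNB at 0.43, and REL fell, at -0.29. Their values under the alternatives were not followed gene by gene. RELA stood at 0.29 and NFKB2 at 0.21. Of the 9 inhibitors 5 rose, TNFAIP3 at 0.25. These counts were not stable: with all 9 libraries in 1 fit, 3 factor genes and 1 inhibitor gene were called higher, and RELA, NFKB2 and TNFAIP3 lost their calls (edgeR adjusted p = 0.0889, 0.227 and 0.0864). Without AP001189.3 replicate 1, AP001189.3 replicate 3 or control replicate 2, 2 inhibitor genes were called. NFKB2 lost its call under 4 of 14 alternatives. After GC correction 8 factor genes and 3 inhibitor genes were called higher, and NFKB2 stood at 0.02.

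Genes for mRNA turnover moved both ways with LINC00996, with 3 of 8 lower and 2 higher, beside 11.6% and 10.7% over all genes tested. HNRNPD, also known as AUF1, which binds AU-rich elements, rose by 0.92 (SE 0.11, edgeR adjusted p = 1.41e-04), while ZFP36L2 and ZFP36L1, which promote decay of such mRNAs, fell by 0.49 and 0.46. With AP001189.3, 7 of 8 rose, beside 11.4% higher over all genes tested. ZFP36 rose the most, by 0.95 (edgeR adjusted p = 0.0037), with HNRNPD at 0.53, ZFP36L2 at 0.41 and ZFP36L1 at 0.26. With all 9 libraries in 1 fit, 3 of the 8 were called, all higher, and ZFP36L1 was not among them (edgeR adjusted p = 0.0591). Of 7 epithelial markers tested, 2 fell with LINC00996 and none rose, beside 22.3% called over all genes tested, and their median was 0.09. CDH1, the gene of E-cadherin, fell by 0.89 and KRT19 by 0.40, while EPCAM (0.28), NAPSA (0.65), KRT18 (0.09) and KRT7 (-0.04) were not called. Without LINC00996 replicate 1, 3 of the 7 were called lower and 1 higher. KRT19 lost its call under 5 of 14 alternatives (adjusted p up to 0.115, without LINC00996 replicate 2), and KRT8, at 0.30 and not called (adjusted p = 0.0958), was called higher under 5, after GC correction among them. The part of these markers in the chemokine result was not tested.

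**Figure D4:**
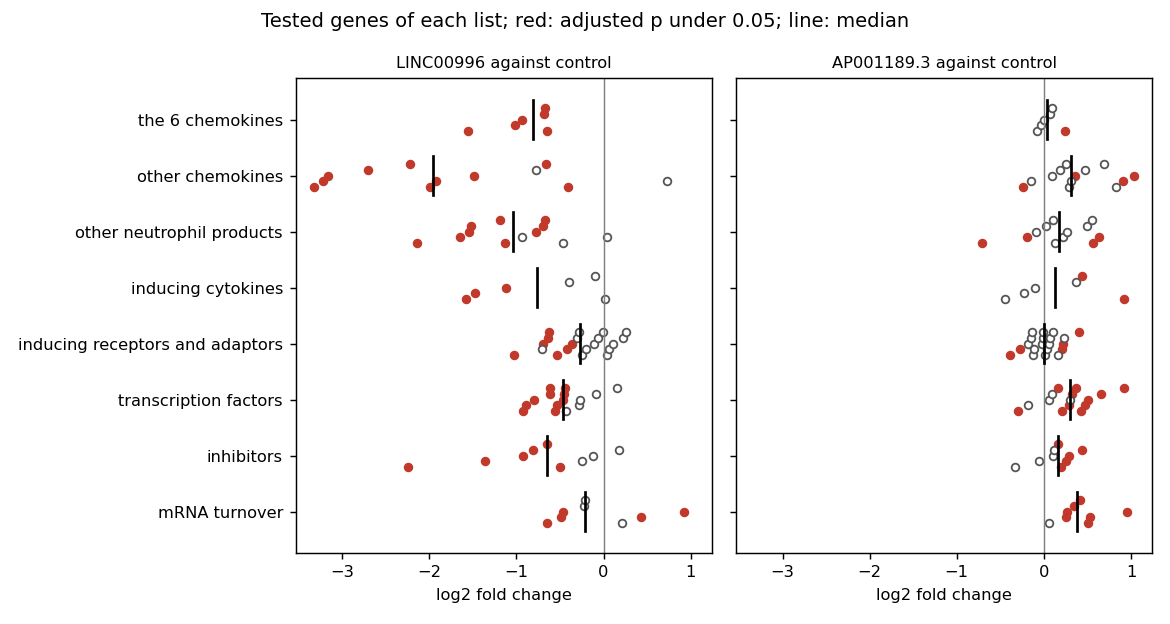
Log2 fold change (x axis) of the tested genes of the 8 groups plotted (the 6 chemokines and 7 lists), for LINC00996 (left) and AP001189.3 (right) against control; each point is 1 gene, red where the adjusted p was under 0.05, and the black line is the median of the list. On the left the plotted medians run from -1.96 (other chemokines) to -0.22 (mRNA turnover), and on the right from 0.0028 (receptors and adaptors) to 0.38 (mRNA turnover).

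The kappa B letters seen in the promoter stretches were also set against the LINC00996 result. Of 11028 tested genes with a promoter entry, 12.1% fell. Of the 49 with GGAATTTCC, 20 fell (40.8%), and leaving out the 5 CXC members, 15 of 44 fell (34.1%). The share among genes with the longer kappa B consensus was 14.6%, with the AP-1 letters 17.1% and with TATAAA 19.7%. Among genes with the interferon-stimulated response element, which none of the 6 chemokine promoters matched, it was 27.6%. These shares are descriptions without a test.

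Genes whose profile over the 9 libraries was nearest to that of each chemokine were found among 14621 genes by the root mean square difference of centred log2 CPM. CXCL8 was nearest to SOD2, mitochondrial superoxide dismutase, at 0.0663, which went from 1680.3 ± 46.2 CPM in control to 776 ± 125 CPM with LINC00996 and 1647 ± 104 CPM with AP001189.3. Next nearest to CXCL8 was STS, the gene of steroid sulfatase (0.0769). CCL20 was nearest to APOL1 (0.0985) and OASL (0.104), both induced by interferon. CXCL2 was nearest to the kinase gene MAP3K8 (0.0447) and TAPBP (0.0467), CXCL1 to MFHAS1 (0.0428) and ANKRD13A (0.0518), and CXCL5 to the kinase gene SGK1 (0.0413) and DIP2B (0.0479). CXCL3 was nearest to RHOB (0.0770) and TAPBPL (0.0790). Among the members themselves CXCL1 and CXCL5 were closest (0.0672) and CXCL5 and CCL20 furthest apart (0.478). These distances come from the same 9 libraries as the comparisons and carry no test.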

How the data were processed

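RNA from A549 cells carrying the control, LINC00996 or AP001189.3 plasmid was sent by the authors to Novogene. It was sequenced there as poly(A) libraries with paired reads of 150 bases. Per the submitters' processing notes, HISAT2 2.0.5 and featureCounts 1.5.0-p3 were used, and DESeq2 1.20.0 and edgeR 3.22.5 are listed. Strand and multiple-mapping settings are not given in the sources used here. The deposited table holds the authors' raw read counts for each gene with no scaling, and all 9 count columns were used. The deposited FPKM values, made by the authors from counts and gene length, served as a check only. The coordinates of all 58735 genes equal those of GENCODE 29 (GRCh38).

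Libraries were grouped by their titles. Each of the 3 comparisons was fitted on its 6 libraries with the robust quasi-likelihood test of edgeR 4.0.16 (R 4.3.3) after filterByExpr and TMM normalization, and a gene was called at p under 0.05 after Benjamini-Hochberg adjustment over all genes tested. The 95% intervals cover the fitted spread between libraries. CPM uses TMM factors, and TPM was computed from counts and deposited gene lengths. The floor at a count of 0 is 3 counts and covers counting error only. Ratios were compared by exact two-sided permutation tests. The scripts were tested on simulated data. Alternatives were DESeq2 1.42.0, other scalings and filters, thresholds, 1 fit of all 9 libraries, a replicate block and leaving out each library. A GC-content offset (loess) was added after the data were seen.

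The chemokines and gene lists were chosen with earlier results of these data known. Besides the 6 chemokines, the text names from each list up to 3 genes with the smallest adjusted p for LINC00996 against control, the markers, protein-coding genes within 500 kb, and for each member the 2 nearest profiles among genes with a mean of at least 1 CPM. For AP001189.3 against control it also names FOSL1, JUN, CEBPD, RELB, JUNB, REL, LTB, SAA1, SLPI and ZFP36, added after the data were seen. Sequences are from RefSeq (GRCh38.p14), where all 6 members matched.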

Additional observations from a re-analysis of the deposited data

How the results depend on the processing

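All 6 chemokines were called lower with LINC00996, against control and against AP001189.3, under every alternative except a required absolute log2 fold change of 1, which 2 and 3 of them passed. Their values against control ran from -0.60 to -1.64 over all leave-one-out fits. For AP001189.3 against control the count of 1 became 0 with all 9 libraries in 1 fit, 0 with a required change of 1 and 3 with the GC-content offset, and was 1 in each leave-one-out fit. CXCL8 in that comparison, near 0 at 0.0012, turned negative with DESeq2 (-0.0062), library size alone (-0.024), DESeq2 size factors (-0.0035), no filter (-0.0040) and the stricter filter (-0.0020), and ran from -0.038 to 0.071 when libraries were left out. CXCL3 ran from -0.00020 to 0.15 when libraries were left out, and CXCL1 and CXCL5 turned to 0.019 and 0.053 with the GC-content offset. PPBP against control with LINC00996 ran from -0.36 to 0.13 when libraries were left out.

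Counts over all genes moved more. With LINC00996 against control the 3588 calls became 1813 at an adjusted p under 0.01, 759 with a required change of 1, 5986 with the GC-content offset, and 1925 to 5481 when libraries were left out, the highest without LINC00996 replicate 1. AP001189.3 against control went from 3180 to 437 with all 9 libraries in 1 fit, 1746 at 0.01, 158 with a required change, and 1914 to 3598 when libraries were left out. LINC00996 against AP001189.3 went from 3452 to 1766 at 0.01, 666 with a required change, 5743 with the GC-content offset, and 1840 to 6828 when libraries were left out. Causes were not tested, beyond the smaller number of genes that a stricter threshold must pass.

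Groups share replicate numbers in the titles. Deviations of same-numbered libraries correlated at 0.15, 0.02 and 0.09 for LINC00996 and control and at 0.06, -0.02 and 0.03 for AP001189.3 and control. The numbers were not taken as pairs in the comparisons. The rho with GC content fell from replicate 1 to replicate 3 in every group. It was -0.0026, -0.24 and -0.27 in control, 0.43, -0.24 and -0.42 with LINC00996, and 0.35, 0.22 and 0.20 with AP001189.3. Whether same-numbered libraries shared a step was not tested. With a replicate block the counts of all genes were 4500, 3466 and 3772, and those of the 6 chemokines 6, 1 and 6, in the order LINC00996 against control, AP001189.3 against control, LINC00996 against AP001189.3. For LINC00996 and control, each library correlated best with its own number in replicates 1 and 3 only. Counts of 354 to 57255 stood behind the chemokine values, and 3 libraries a group limit what can be called. For AP001189.3 against control the count moved by over 1.5 times under 13 of 16 alternatives for inhibitors, 10 for receptors and adaptors and 9 for inducing cytokines. For LINC00996 against control it did so under 7 for epithelial markers and 6 for receptors and adaptors. With all 9 libraries in 1 fit, 1 of the other chemokines, 1 inducing cytokine and 1 receptor or adaptor gene were called for AP001189.3 against control. With the GC-content offset, LINC00996 against control called 13 transcription factor genes, 11 neutrophil products, 7 inhibitors and 6 mRNA turnover genes (3 lower, 3 higher), the same counts as without LINC00996 replicate 1, and AP001189.3 against control called 6 other chemokines and 5 mRNA turnover genes. The ratios without LINC00996 replicate 1 were added after the data were seen.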
